A study of Mus musculus with 4 samples.

Results

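Trpc4 Dgkg neurons of the lateral septum (LS) were described here as the nuclei with transcripts of Trpc4 and Dgkg and no detected transcript of the genes marking several other LS neuron subtypes. A nucleus was taken when it had 200 to 6000 genes, under 2% mitochondrial UMIs and at least 2000 UMIs. It also needed at least 3 UMIs of Trpc4, at least 2 of Dgkg and at least 1 of Gad1 and Gad2 together. Nuclei with 2 or more UMIs of Rarb, or with 3 or more of Foxp2 or of St18, were left out, and so was any nucleus with a UMI of Crhr2, Pth2r, Calcr, Esr1, Met, Nts, Htr7 or Col15a1. A UMI is a molecular tag that marks 1 captured RNA molecule. A missing UMI does not show that a nucleus lacked the transcript. Whether neurons of the excluded subtypes are among those taken was not tested. The rule found 3112 nuclei among the 48940 that met the gene, mitochondrial and UMI limits, out of 58372 barcodes in all.

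LS tissue came from male mice 6 to 8 weeks old, and each library pooled tissue of 3 mice. There were 2 libraries of C57BL/6JNifdc mice, called C57J 1 and C57J 2, and 1 library each of nude mice and BALB/c mice. Nude mice carry a loss of Foxn1, lack a thymus and are of BALB/c descent. Strain background therefore separates C57J from both other libraries. The labels put C57J 1 in batch 1 and the other 3 libraries in batch 2. Values are given throughout with the C57J libraries first, then nude, then BALB/c, and the libraries held 836, 759, 980 and 537 Trpc4 Dgkg neurons. The libraries totalled 102939576, 72912922, 82169638 and 125998527 UMIs. With 1 library each, nude and BALB/c have no replicate error of their own, so the tests set the 2 C57J libraries against nude and BALB/c together, called the BALB/c background here. Nothing shows how much mice within a pool differed, and p-values measure the spread between pooled libraries.

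The LS is built mainly of GABAergic projection neurons, which receive hippocampal input and send inhibitory axons to the hypothalamus and midbrain. Trpc4 encodes a cation channel of the canonical transient receptor potential family that opens downstream of receptors coupled to Gq and Gi/o proteins, and it is a marker of LS neurons. Receptors coupled to Gq activate phospholipase C, which releases diacylglycerol. Dgkg encodes a diacylglycerol kinase, which turns that lipid into phosphatidic acid and so ends its signal to protein kinase C and related readers. Trpc4 lies at chr3:54156035-54318471 and Dgkg at chr16:22468461-22657221 of mm10.

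The rule sets the levels of its own genes, so these are a description. Levels are given as CPM, which is how many UMIs a gene had for every 1000000 UMIs of the named nuclei within 1 library. The assay reads transcript ends, so CPM are not compared between genes. Trpc4 was at 957, 940, 976 and 833 CPM in Trpc4 Dgkg neurons, and at 576, 598, 649 and 516 CPM in all nuclei within the limits. Dgkg was at 859, 896, 994 and 794 CPM, against 623, 651, 734 and 611 CPM in all nuclei. Both genes were lowest in the BALB/c library. The median nucleus carried 7, 6, 6 and 10 UMIs of Trpc4 and 6, 5, 5 and 7 UMIs of Dgkg. At the threshold, 101, 118, 158 and 36 nuclei had 3 UMIs of Trpc4, and 111, 119, 159 and 50 nuclei that met all other conditions had 2. For Dgkg, 107, 134, 153 and 53 nuclei had 2 UMIs and 131, 136, 155 and 46 just outside had 1.

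The label was checked on markers of neurons, of the septum, of the striatum and of medial septal neurons. Snap25, Rbfox3, Syt1 and Meg3, markers of neurons, summed to 16694, 15655, 16464 and 17291 CPM. Slc32a1, the vesicular GABA transporter, was at 66.2, 50.2, 59.4 and 65.2 CPM, and Gad1 and Gad2 were in the rule. Prdm16, a transcription factor of septal neurons, was at 294, 302, 322 and 293 CPM, against 26.7, 32.9, 26.3 and 27.1 CPM in GABAergic nuclei with at least 3 UMIs of Rarb and no Trpc4, a comparison set of striatal-like neurons. Zic1 and Zic4, which pattern the septum, were also higher than in that set in every library, with Zic4 at 93.9, 91.2, 117 and 105 CPM against 13.9, 17.2, 21.3 and 20.4 CPM. Ppp1r1b, a signalling protein of striatal projection neurons, was at 5.96, 2.42, 0.833 and 4.03 CPM against 60.4, 24.5, 29.4 and 49.3 CPM. The 5 medial septal markers summed to 102, 115, 121 and 189 CPM, led by Elavl2, against 163, 207, 222 and 257 CPM in all nuclei. Elavl2 was not low in every part of these neurons, as the groups described below show. These sets were defined by transcripts of the same nuclei, so the differences were not tested.

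Transcripts that mark other cells were also counted. The 8 oligodendrocyte markers, with St18 held under 3 by the rule, summed to 491, 467, 339 and 300 CPM in Trpc4 Dgkg neurons and to 1255, 1187, 675 and 1630 CPM in all nuclei. The 6 astrocyte markers summed to 1034, 805, 898 and 732 CPM, led by Gpc5, against 2270, 1633, 1632 and 2350 CPM in all nuclei. The 6 microglial markers were at 52.2, 69.4, 54.7 and 50.9 CPM, not far below the 71.7, 76.3, 63.8 and 88.2 CPM of all nuclei. The 5 vascular markers were at 4.47, 2.60, 3.61 and 3.89 CPM, led by Pdgfrb, against 11.4, 8.27, 6.82 and 18.4 CPM. No marker of any of these 4 lists was at 0 over the 4 libraries. Doublets predicted from simulated mixtures made up 9.69%, 12.5%, 10.9% and 7.08% of the Trpc4 Dgkg neurons, below the 12.9%, 14.0%, 14.0% and 9.78% of all nuclei within the limits. Between 29 and 63 barcode sequences occurred in both libraries of a pair, and 1 pair of Trpc4 Dgkg neurons shared a barcode between C57J 1 and C57J 2 and 1 between nude and BALB/c.

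The depth of the libraries bears on everything that follows, because the rule counts raw UMIs. The median Trpc4 Dgkg neuron had 8411, 7241, 6868.5 and 12699 UMIs, and the BALB/c library was the deepest. A deep nucleus passes the minimum for Trpc4 and Dgkg more easily, but it also shows a UMI of 1 of the 8 excluded genes more easily. Membership was therefore also decided after every nucleus had been thinned at random to 2000 UMIs, an alternative added after the data had been seen, and its values stand beside the main ones where they differ. That rule found 308, 250, 324 and 180 nuclei.

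The share of Trpc4 Dgkg neurons was 6.16% in C57J 1, with an exact binomial 95% interval of 5.76 to 6.57%, and 6.78% in C57J 2, with 6.32 to 7.26%. The share was 8.00% of the nude nuclei (7.52 to 8.49%) and 4.51% of the BALB/c nuclei (4.14 to 4.89%). These intervals cover counting error only. Nude stood above and BALB/c below both C57J libraries. The mean share was 6.47 ± 0.443% (SD, n = 2) in C57J and 6.25 ± 2.47% (SD, n = 2) in the libraries of BALB/c background. The difference was smaller than the spread within the BALB/c background (exact two-sided permutation test, p = 1, with 0.333 the smallest p that 2 against 2 libraries allow). Without nude the log2 ratio of the mean shares was -0.52, and without BALB/c it was 0.31.

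After thinning to 2000 UMIs the shares were 2.27%, 2.23%, 2.64% and 1.51%. The intervals of C57J 1, C57J 2 and nude then overlapped, and that of BALB/c lay below them. Set against the GABAergic nuclei with at least 3 UMIs of Trpc4, under 2 of Rarb and under 3 of St18, the share was 17.2%, 18.2%, 18.7% and 12.6%. With both counts taken at 2000 UMIs it was 28.1% (25.4 to 30.8%), 28.3% (25.4 to 31.4%), 27.6% (25.1 to 30.3%) and 24.3% (21.2 to 27.5%). BALB/c was still the lowest library, by a smaller margin, and the intervals of counting overlapped. Over libraries, the 2 of BALB/c background were below both C57J libraries (exact two-sided permutation test, p = 0.333, the smallest that 2 against 2 libraries allow).

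**Figure D1:**
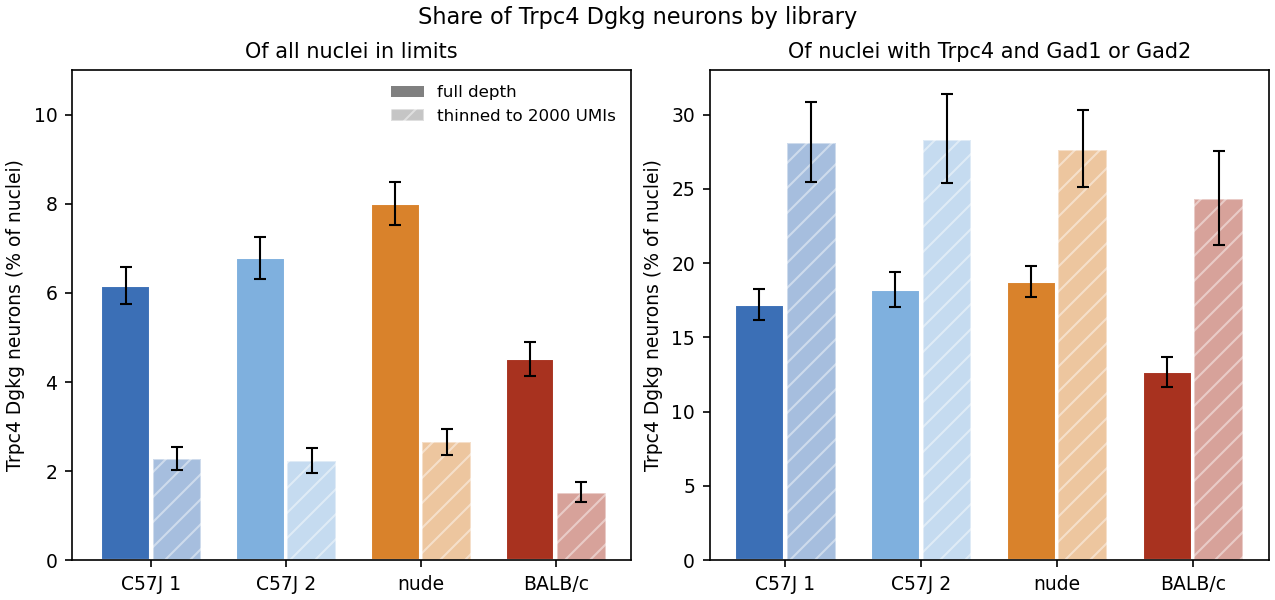
Share of Trpc4 Dgkg neurons in each library, as a percentage of all nuclei within the limits (left) and of nuclei with Trpc4 and a GABAergic gene (right). Solid bars show full depth, hatched bars show nuclei thinned to 2000 UMIs, and error bars are exact 95% binomial intervals of counting. BALB/c is lowest at full depth in both panels, at 4.51% and 12.6%, while the hatched intervals on the right overlap.

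Trpc4 Dgkg neurons were not uniform. Their nuclei were clustered on 1500 variable genes, without the genes of the rule, the mitochondrial genes and the 165 genes that differed between the strain backgrounds, and 9 groups were found. The groups are named by number and leading genes, and since they were made from these nuclei, their genes are a description with no test. Each nucleus was linked to its 6 nearest nuclei in each of the 4 libraries, which favours groups that mix libraries. Each group held nuclei of all 4 libraries, so this mixing is no result. Trpc4 varied little between groups, from 686 CPM in group 1 to 1076 CPM in group 6. Dgkg spread more widely, from 476 CPM in group 8 to 1539 CPM in group 5 and 1494 CPM in group 7.

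Group 1, with 526 nuclei, was led by Otx2os1, 9530026P05Rik, Adarb2, Kcnmb2 and Elavl2. Otx2os1 is a noncoding RNA beside the homeobox gene Otx2, and Elavl2 is an RNA-binding protein used to mark medial septal neurons. Otx2os1 was at 108 against 8.18 CPM, and the study pairs it with the excluded Esr1 as a mark of a ventral LS subtype. Elavl2 was at 416 CPM in this group and at 58.0 CPM in the other Trpc4 Dgkg neurons. Adarb2, an RNA editing enzyme homolog, was at 416 against 42.0 CPM. By library Elavl2 was at 262, 338, 356 and 624 CPM and Adarb2 at 295, 342, 226 and 704 CPM in group 1, both highest in BALB/c. Oprm1, the mu opioid receptor, was at 93.4 against 17.2 CPM. Group 1 had the lowest Trpc4. Its Elavl2 was above that of all nuclei in each library, which was at 129, 156, 185 and 209 CPM. Its Slc5a7, the choline transporter of cholinergic neurons, was the highest of the groups at 20.2 CPM. Whether the nuclei of group 1 belong to the LS was not tested.

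Group 2, with 412 nuclei, was led by Gm10754, Il1rapl2, C230014O12Rik, Pawr and Sema5b. Il1rapl2, a synaptic adhesion protein, was at 1695 CPM against 369 CPM elsewhere. Htr4, a serotonin receptor, was at 222 against 74.0 CPM. Group 3, with 396 nuclei, had Drd3, Crybg3, Parm1 and Car10 among its leading genes. Drd3, the D3 dopamine receptor, was at 141 against 18.2 CPM. Drd3 also reached 68.4 CPM in group 2, and it was at 3.05 CPM in group 4.

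Group 4, with 388 nuclei, was led by 4921539H07Rik, Stac2, Grid2ip, Dach2 and Gm2115. Stac2, an adaptor of voltage-gated calcium channels, was at 249 against 15.8 CPM, and Grid2ip, a scaffold of delta glutamate receptors, at 69.2 against 4.33 CPM. Dach2 was at 318 against 27.9 CPM. The study reports strong overlap between the neurons that Dach2, Grid2ip and the excluded Crhr2 define. Group 5, with 355 nuclei, was led by Kynu, Calcrl, Ccdc141, Penk and Nr4a3. Penk, the precursor of enkephalins, was at 80.9 against 9.82 CPM, and by library it was at 53.4, 53.3, 42.3 and 170 CPM in group 5, so that BALB/c carried much of the pooled level. This group also had the activity-regulated genes Fos at 50.3 CPM and Npas4 at 53.3 CPM over the 4 libraries, with Fos at 33.7, 53.3, 29.8 and 82.9 CPM by library, while Fos lay between 2.56 and 15.1 CPM in the other 8 groups. Sst, the somatostatin precursor, was at 88.9 CPM in group 5 and at 16.8 to 49.1 CPM in the others. Receptors and peptides that do not lead a group were singled out after their values had been seen.

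Group 6, with 348 nuclei, was led by 2600014E21Rik, Pax6, Otof, Sel1l3 and Syt6. Pax6, a paired-box transcription factor, was at 225 against 6.52 CPM, and Otof, a calcium sensor of transmitter release, at 94.1 against 3.34 CPM. Group 7, with 304 nuclei, was led by Hmcn1, 2310002F09Rik, Slc26a4, Mctp2 and Matn2. Glp1r, the receptor of glucagon-like peptide 1, was at 73.9 CPM in group 7, 60.3 CPM in group 5 and 5.98 CPM in group 3. Group 8, with 297 nuclei, was led by Sfta3-ps, Tshz2, Tafa2, Slit2 and Pde3a.

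Group 9, with 86 nuclei, was led by Gm6145, Tcf7l2, Mertk, Nhsl1 and Gli3, and its Slc1a2, the glial glutamate transporter of astrocytes, was at 1780 CPM against 225 to 365 CPM in the other groups. Predicted doublets made up 95.3% of group 9, and 5.05 to 10.6% of each of the other 8 groups.

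**Figure D2:**
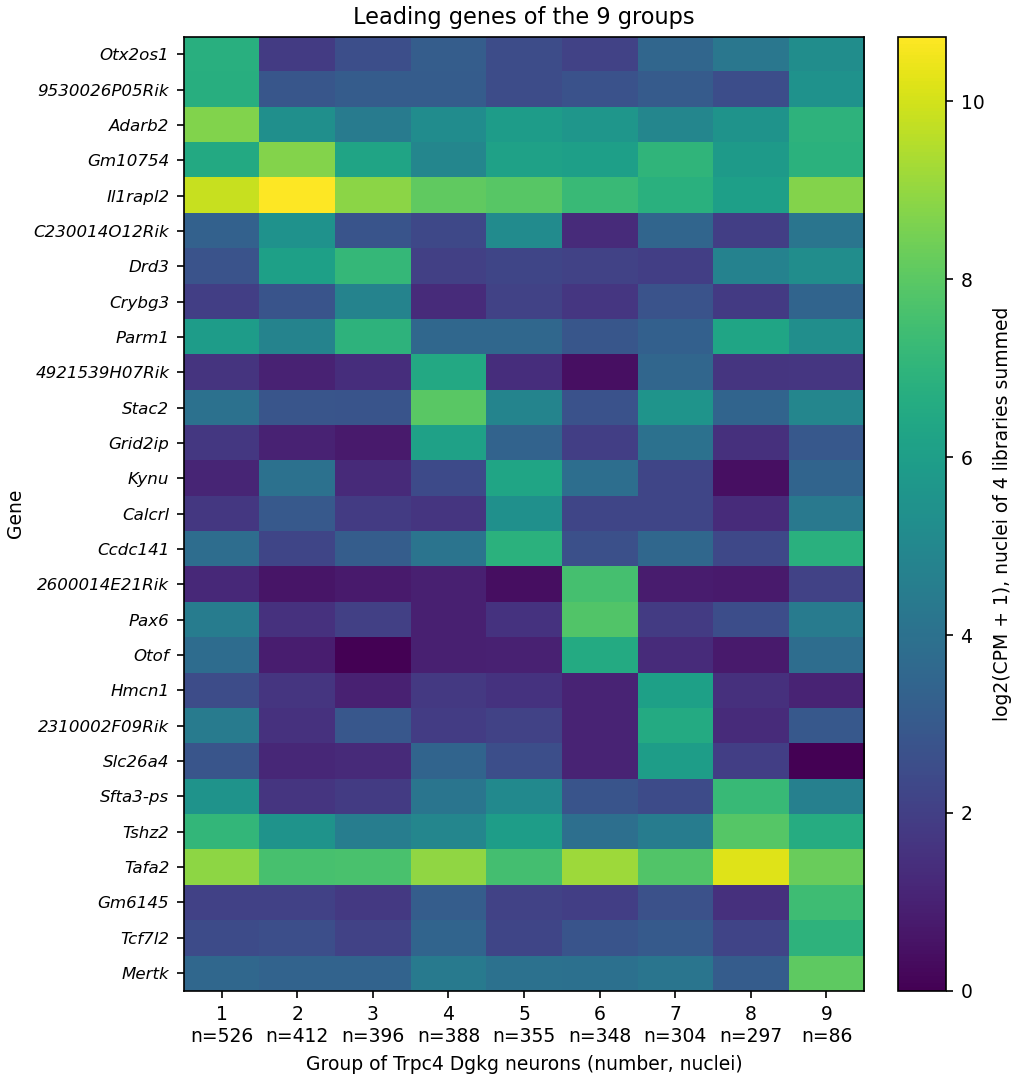
Level of 3 of the leading genes of each of the 9 groups among Trpc4 Dgkg neurons, as log2(CPM + 1) over the nuclei of 4 libraries. Columns are groups with their numbers of nuclei, and rows are genes. Sharp blocks on the diagonal mark groups 4, 6 and 7, while Il1rapl2 and Tafa2 are present in all groups.

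The share in BALB/c lay outside the range of the other libraries by the widest gaps in groups 7, 3, 2 and 1. Group 7 held 10.4% (8.42 to 12.7%), 12.4% (10.1 to 14.9%) and 11.1% (9.22 to 13.3%) of Trpc4 Dgkg neurons in C57J 1, C57J 2 and nude, and 2.61% (1.43 to 4.34%) in BALB/c. Group 3 held 12.4%, 11.9%, 11.1% and 17.3%, and group 2 held 16.7%, 12.5%, 13.1% and 9.12%, with C57J 1 above C57J 2 and nude. Group 1 held 14.4%, 16.5%, 17.3% and 20.7%. Nude did not move with BALB/c in groups 7 and 3. A share in 1 library has no replicate, and depth moved with it, so the following values were taken at matched membership.

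Cpa6, Col6a3 and Matn2 were each highest in group 7. The study reports Cpa6 and Col6a3 together with the excluded Col15a1 in a dorsolateral subtype. Cpa6, a carboxypeptidase, was at 143, 162, 147 and 71.9 CPM in Trpc4 Dgkg neurons, and at 303, 317, 210 and 193 CPM when membership was decided at 2000 UMIs. Col6a3, a collagen, was at 35.4, 30.5, 40.5 and 16.0 CPM, and at 60.7, 63.4, 73.0 and 48.0 CPM at 2000 UMIs. In all Trpc4 GABAergic nuclei Col6a3 was at 47.9, 46.0, 54.0 and 48.6 CPM, with BALB/c inside the range of the other libraries. Ndnf, a secreted factor also among the genes of group 7, was lowest in BALB/c at full depth, at 19.6, 23.9, 25.1 and 12.7 CPM, but not at 2000 UMIs, at 39.2, 54.8, 48.8 and 54.3 CPM. In all Trpc4 GABAergic nuclei Ndnf was highest in BALB/c, at 30.9, 34.5, 33.1 and 36.4 CPM. Elavl2 of group 1 was at 80.9, 97.4, 105 and 171 CPM, and at 51.4, 45.2, 60.4 and 53.2 CPM at 2000 UMIs. BALB/c was thus the highest library for Elavl2 at full depth and inside the range of the others at 2000 UMIs. In all Trpc4 GABAergic nuclei Elavl2 was at 96.8, 98.3, 124 and 158 CPM, and in all nuclei at 129, 156, 185 and 209 CPM, with BALB/c again highest. Adarb2, also of group 1, was highest in BALB/c at full depth, at 81.0, 78.9, 74.6 and 164 CPM, and lowest there at 2000 UMIs, at 123, 94.2, 69.0 and 51.3 CPM. Matn2, an extracellular matrix protein, was lowest in BALB/c under each choice, at 49.3, 58.1, 49.99 and 18.1 CPM at full depth, 104, 123, 90.4 and 56.9 CPM at 2000 UMIs, and 80.4, 82.3, 65.5 and 43.9 CPM in all Trpc4 GABAergic nuclei. Cpa6, and Hmcn1 and Zeb2, which are also among the genes of group 7, were likewise lowest in BALB/c under each of these choices.

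**Figure D3:**
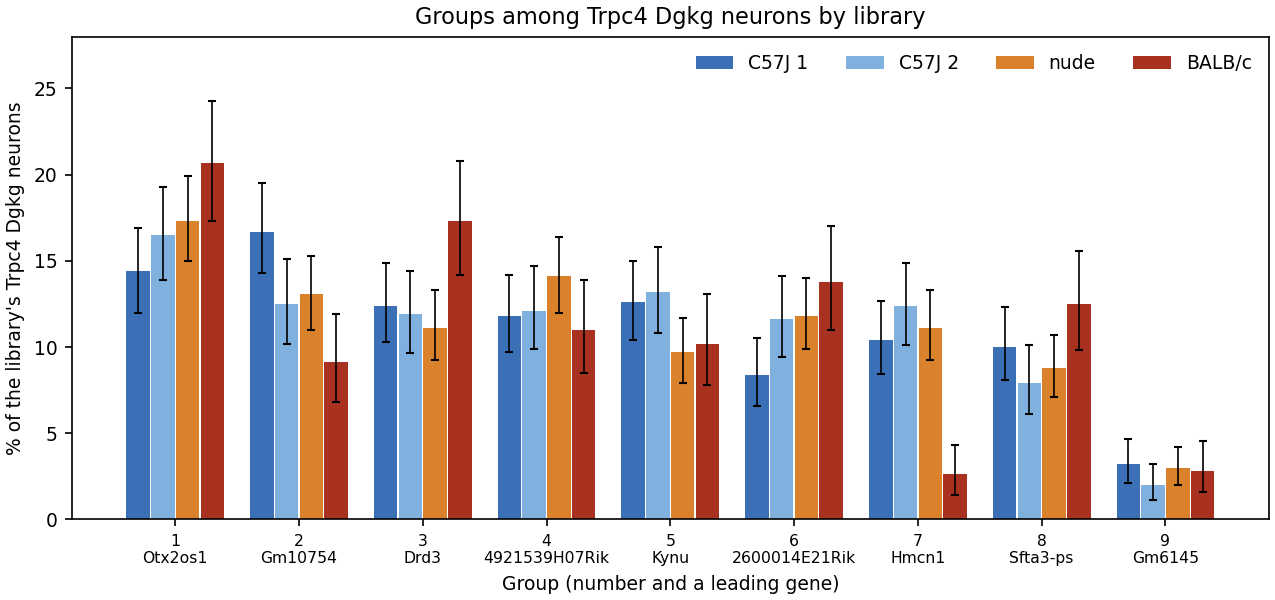
Share of each library's Trpc4 Dgkg neurons in the 9 groups, with exact 95% binomial intervals of counting. Bars are the 4 libraries and groups are named by number and a leading gene. Group 7 falls to 2.61% in BALB/c from 10.4 to 12.4% in the other 3 libraries.

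The next comparison asked which genes of Trpc4 Dgkg neurons differed between the C57J and the BALB/c backgrounds. Summed counts of the 2 C57J libraries were tested against those of nude and BALB/c with edgeR. Calls needed an adjusted p (Benjamini-Hochberg) under 0.05 together with a log2 fold change beyond 0.5 in either direction, and positive log2 values mean higher in nude and BALB/c. Of 14499 genes tested, 165 were called (1.14%), 66 higher (0.455%) and 99 lower (0.683%). Without the filter on low counts, 13 genes were called, all of them among the 165. The genes described next are among the 20 with the largest changes among called genes whose libraries did not overlap, at 20 CPM or more on the higher side. Among all genes tested, 18.2% were higher and 23.1% lower without overlap.

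Genes of motile cilia stood among the largest rises in the BALB/c background. Cfap54, a protein of the ciliary central apparatus at chr10:92775619-93081618, was at 71.9, 68.2, 248 and 247 CPM (log2 fold change 1.84 ± 0.09 SE, adjusted p = 0.00019). Dnah7a, an axonemal dynein heavy chain, was at 7.72, 9.35, 45.1 and 35.5 CPM (2.27 ± 0.20, adjusted p = 0.0021). Dnah6, another dynein heavy chain, was at 4.74, 5.88, 26.1 and 16.1 CPM, and Cfap61, of the radial spoke, at 9.35, 11.2, 28.6 and 26.6 CPM. These 4 genes were chosen by the size of their change, and no list of ciliary genes was tested. Each was higher in both libraries of BALB/c background than in either C57J library, as the choice of genes without overlap required.

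Other genes that rose had roles outside the cilium. Zfp808, a zinc finger protein of the KRAB family at chr13:62129886-62236144, was at 3.25, 3.81, 26.1 and 25.7 CPM (2.90 ± 0.21, adjusted p = 0.001). Fbn2, a fibrillin of the extracellular matrix, was at 33.1, 39.3, 120 and 102 CPM (1.64 ± 0.13, adjusted p = 0.0016). Other large rises were those of Gm13110, Gm3448 and Zfp951, with log2 fold changes of 3.15, 1.69 and 1.43. Zfp808 and Zfp951 belong to a multigene family, and their levels are uncertain where reads are shared with close copies.

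The steepest fall was that of a noncoding RNA. 1500004A13Rik, at chr3:88782943-88832547, was at 114, 145, 17.4 and 15.01 CPM (log2 fold change -2.97 ± 0.15, adjusted p = 0.00019). Fggy, a carbohydrate kinase at chr4:95557507-95926939, was at 70.7, 60.2, 13.2 and 8.20 CPM (-2.59 ± 0.21, adjusted p = 0.0016). Both were several times lower in each library of BALB/c background. Gm43713, an antisense transcript near 1500004A13Rik at chr3:88845025-88900001, was at 22.8, 33.4, 11.7 and 9.45 CPM.

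Ulk4, a pseudokinase at chr9:120955351-121277197, was at 129, 140, 46.0 and 43.0 CPM (-1.58 ± 0.10, adjusted p = 0.00084). Acaa1a, a peroxisomal thiolase of fatty acid oxidation on the same chromosome at chr9:119339676-119350299, was at 24.0, 22.0, 6.66 and 7.37 CPM (-1.69 ± 0.19, adjusted p = 0.0063). Mid1, a ubiquitin ligase of microtubules on the X chromosome, was at 46.9, 25.6, 8.47 and 4.87 CPM, with C57J 1 well above C57J 2. The remaining largest falls were Gm31508, A930015D03Rik, Gm29088 and Rpl26, with log2 fold changes of -2.27, -1.46, -1.45 and -1.42. Rpl26 encodes a ribosomal protein with many processed copies in the genome, and its level is uncertain for that reason.

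**Figure D4:**
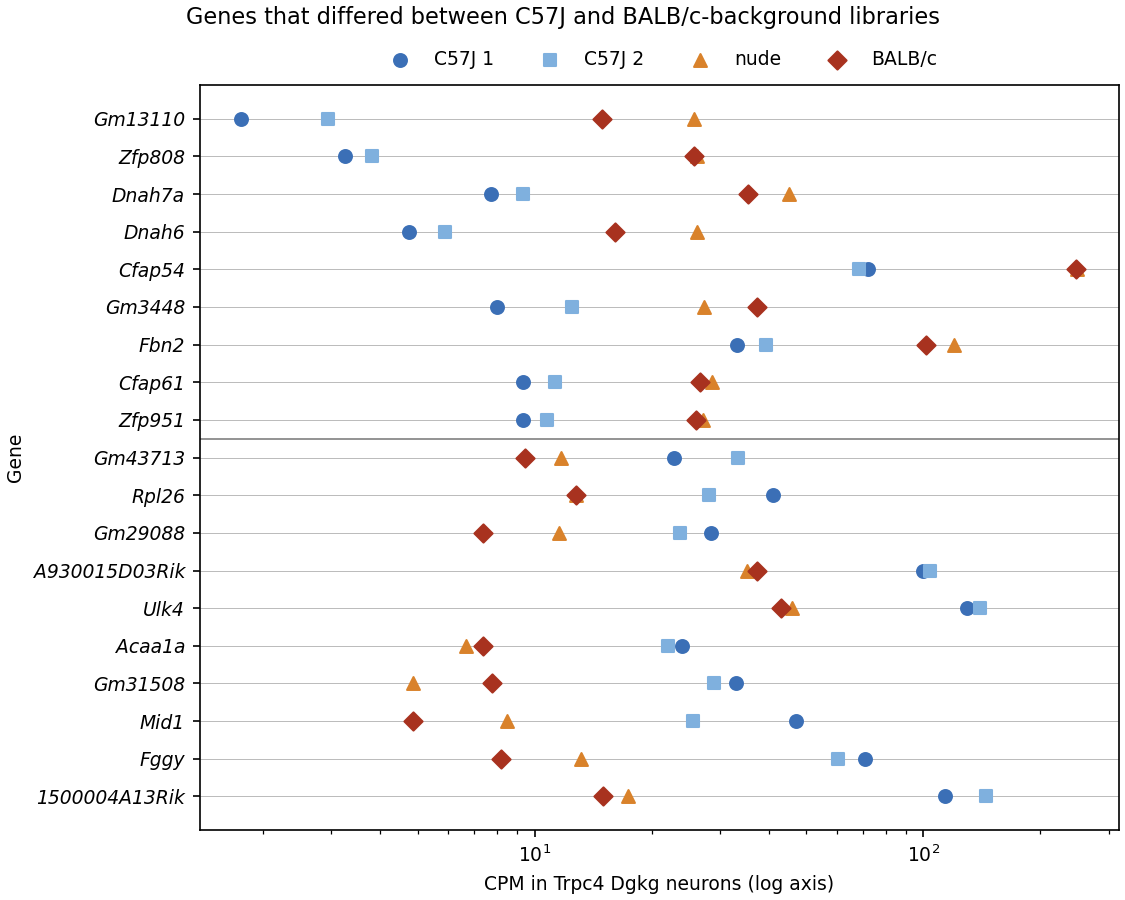
Level in CPM, on a log axis, of genes with the largest rises (above the line) and the largest falls (below it) in libraries of BALB/c background, in Trpc4 Dgkg neurons. Each symbol is 1 library. In every row the C57J symbols lie apart from the nude and BALB/c symbols, as the choice of these genes required.

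The 2 libraries of BALB/c background lay close together for most of these genes. C57J 2, which shares their batch label, gave the same directions as C57J 1, but the choice of genes without overlap required this. Against C57J 2 alone, the log2 ratio of Cfap54 was 1.85 in nude and 1.84 in BALB/c, and that of 1500004A13Rik was -2.99 and -3.19. Without C57J 1 the fit compared libraries of 1 batch label only and called 124 genes, 104 of them among the 165. C57J 2 then stood alone, and its spread was assumed to be that between nude and BALB/c. Without BALB/c, with nude alone on its side, it called 70, of which 58 were among the 165. With membership decided at 2000 UMIs it called 100, of which 81 were among the 165. Of the genes with the largest changes between backgrounds named here, Cfap54, Dnah7a, Zfp808, Fbn2, 1500004A13Rik, Ulk4 and A930015D03Rik were still called without the filter on low counts, and the others were not.

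These differences were not particular to Trpc4 Dgkg neurons. In all nuclei within the limits Cfap54 was at 65.7, 71.6, 244 and 221 CPM and 1500004A13Rik at 116, 139, 16.8 and 12.7 CPM. The difference itself was tested against the Trpc4 GABAergic neurons with at least 2 UMIs over the 8 excluded genes, 9836 nuclei of the same libraries, as an interaction of population and background. It was called for 0 of the 165 genes and for 6 of 16422 genes (0.0365%), 2 of them with a positive interaction (0.0122%) and 4 with a negative one (0.0244%), while 861 genes reached an unadjusted p under 0.05 and DESeq2 called 1 gene. The 6 were Gm32647, Thsd7b, Il1rapl2, Ccdc141, Glp1r and Rad51b, and 0 of them were called with membership decided at 2000 UMIs, where Rad51b was not tested.

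Of the genes that the study named for neurons, 3 of 11 were called in Trpc4 Dgkg neurons, against 1.14% of all genes tested, and none of the 3 was called without the filter on low counts. The study named them from these libraries, so the calls here are no independent evidence of their direction. It measured most of them, Ndn, Ivd and Sorl1 included, by qRT-PCR in mice not used for sequencing, and reports that this bore out the sequencing. Cnr1 and Ptchd1 it named as genes of an LS subtype. Ndn, a growth suppressor of the MAGE family, was at 30.2, 22.7, 48.3 and 74.4 CPM (1.22 ± 0.22, adjusted p = 0.04). Ivd, a dehydrogenase of leucine breakdown, was at 43.4, 46.0, 21.0 and 19.6 CPM (-1.12 ± 0.14, adjusted p = 0.0085). Sorl1, a sorting receptor, was at 106, 119, 58.5 and 62.6 CPM (-0.87 ± 0.10, adjusted p = 0.0075). The groups did not overlap for Ndn, but it was no longer called without C57J 2, without BALB/c or with membership decided at 2000 UMIs, where its log2 fold changes were 1.04, 0.89 and 1.01.

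The other 8 were not called. Grm7, a metabotropic glutamate receptor, was at 1797, 1908, 1529 and 1520.0 CPM (-0.26 ± 0.08, adjusted p = 0.21). Tafa2, a secreted neurokine, was at 384, 335, 460 and 472 CPM (0.40 ± 0.09, adjusted p = 0.11). Synpo, an actin-binding protein of dendritic spines, was at 10.97, 12.3, 12.1 and 22.2 CPM, with BALB/c above the other 3 libraries. Glp1r was at 33.1, 26.7, 19.2 and 30.9 CPM, and its groups overlapped. Ndrg4 was at 234, 146, 128 and 167 CPM and Ptchd1 at 65.8, 77.9, 72.3 and 67.3 CPM, both with overlapping groups. Cnr1, the cannabinoid receptor, was at 63.1, 64.0, 56.9 and 49.9 CPM.

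Mbp, a myelin protein of oligodendrocytes, was at 151, 109, 80.4 and 86.3 CPM (-0.62 ± 0.15, adjusted p = 0.11). It passed the test with DESeq2 and without C57J 2. The 7 oligodendrocyte markers outside the rule had a median log2 fold change of -0.62, against a median of -0.0035 over all genes tested. Of these 7 markers 1 was called, against 1.14% of all genes tested. The 6 astrocyte markers had a median of -0.42, with 0 called. The summed oligodendrocyte markers were lower in the nude and BALB/c Trpc4 Dgkg neurons, although BALB/c had the highest sum in all nuclei. The part of RNA from glia in these differences was not tested.

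The receptors and enzymes around Trpc4 and Dgkg showed no call between the backgrounds. None of the 9 other diacylglycerol kinases, 5 Trpc channels, 25 Gq-coupled receptors and phospholipase C genes, or 23 protein kinase C genes and other diacylglycerol readers tested was called. The same held for 21 glutamate receptor genes, 16 GABA receptor genes and 36 potassium channel genes, and for 12 immediate early genes. No call was made either among 28 peptide and amine receptor genes, 19 calcium, sodium and HCN channel genes, 12 nuclear hormone receptors, 21 septal patterning factors or 27 LS subtype genes. With 1.14% of all genes called, lists of these sizes would hold few or no calls in any case. Their lack of calls is thus no result about these genes. A p that misses the threshold does not show equal levels. Dgkb, another diacylglycerol kinase, was at 2031, 2162, 1695 and 1538 CPM (-0.35 ± 0.08, adjusted p = 0.12), without overlap of the groups. Grm5, a Gq-coupled glutamate receptor, was at 5618, 5584, 5756 and 5241 CPM (-0.01 ± 0.08, adjusted p = 0.99). Of 11 neuropeptide genes tested, 1 was called, against 1.14% of all genes. Cort, the cortistatin precursor at chr4:149125034-149126763, had 0 UMIs in both C57J libraries, 12 in nude and 13 in BALB/c. Against a floor of 3 UMIs in each C57J library it was at least 3.75-fold higher in the BALB/c background, and it was not called by DESeq2.

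A further comparison asked what else differed in neurons that met every condition of the rule but had 0 UMIs of Dgkg. There were 407 such nuclei, 116, 106, 126 and 59 in the 4 libraries. Each library gave a sum for either population, and library was a block in the fit. Dgkg itself was 0 in this set by choice. Of 12653 genes tested, 932 were called (7.37%), 429 higher in Trpc4 Dgkg neurons (3.39%) and 503 lower (3.98%). In all 4 libraries, 9.86% of genes were higher and 18.8% lower. The 2 sets differ in depth, with medians of 8411, 7241, 6868.5 and 12699 UMIs against 6499.5, 5274, 4831 and 8037 UMIs. With membership decided at 2000 UMIs, 841 of the 932 genes were tested and 299 were called, and the single genes that follow were called there too unless stated. Counts over lists are at full depth, and the shares of all genes called, 3.39% higher and 3.98% lower, stand as the background of each.

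Adamtsl1, Ano2 and Col23a1 were among the largest rises in Trpc4 Dgkg neurons, and they were chosen by the size of their change. Adamtsl1, a matrix protein at chr4:85514172-86428385, was at 510, 529, 477 and 270 CPM against 89.9, 88.3, 102 and 79.6 CPM without Dgkg (log2 fold change 2.38 ± 0.13, adjusted p = 5.9e-10). Ano2, a calcium-activated chloride channel at chr6:125690419-126040126, was at 161, 210, 167 and 116 CPM against 25.7, 60.0, 31.1 and 16.3 CPM (2.41 ± 0.16, adjusted p = 9.1e-09). Col23a1, a transmembrane collagen, was at 64.8, 66.1, 65.0 and 29.8 CPM against 8.99, 14.99, 9.91 and 5.43 CPM (2.62 ± 0.21, adjusted p = 1.3e-07). In each of these genes the lowest library of Trpc4 Dgkg neurons was above the highest library without Dgkg.

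Cpa6 was at 143, 162, 147 and 71.9 CPM against 28.3, 85.0, 25.5 and 5.43 CPM (2.02 ± 0.22, adjusted p = 7.1e-06). Hs3st2, a heparan sulfate sulfotransferase, was at 213, 198, 229 and 186 CPM against 74.5, 94.95, 67.9 and 39.8 CPM (1.66 ± 0.14, adjusted p = 5e-07). Glp1r was at 33.1, 26.7, 19.2 and 30.9 CPM against 10.3, 6.66, 8.49 and 1.81 CPM (2.01 ± 0.29, adjusted p = 0.00012). Itpka, which phosphorylates inositol trisphosphate, the partner of diacylglycerol in phospholipase C signalling, was at 32.0, 30.1, 24.4 and 26.1 CPM against 18.0, 6.66, 5.66 and 1.81 CPM. Stac2 and the noncoding Gm12536 rose by log2 fold changes of 1.99 and 2.68. Gm10754 had 1.80 and was not called at 2000 UMIs, where its log2 fold change was 0.17.

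Within the diacylglycerol pathway, 2 of the 9 other diacylglycerol kinases tested were higher and none was lower, against 3.39% higher over all genes. Dgkh was at 432, 413, 420 and 408 CPM against 221, 213, 211 and 130 CPM (1.20 ± 0.12, adjusted p = 3e-06). Dgkb was at 2031, 2162, 1695 and 1538 CPM against 1199.8, 1214, 880.5 and 1118 CPM (0.84 ± 0.10, adjusted p = 1.5e-05), but at 2000 UMIs it was not called, at 0.42. The other 7 kinases were not called.

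Upstream of diacylglycerol, 3 of 22 Gq-coupled receptor and phospholipase genes were higher and 5 were lower. Chrm3, the M3 muscarinic receptor, was at 522, 548, 501 and 417 CPM against 292, 356, 331 and 195 CPM (0.86 ± 0.11, adjusted p = 2.4e-05). Grm5 had a log2 fold change of 0.88 and was not called at 2000 UMIs, at 0.13. Plcl1, an inactive phospholipase C homolog, was lower, at 237, 258, 241 and 302 CPM against 417, 308, 333 and 727 CPM, and so were Htr2c and Itpr2, which were not called at 2000 UMIs. Plcl1 and Itpr2 were not called without BALB/c. Plce1 was called lower under both choices, but its libraries did not move alike, at 8.53, 10.6, 12.2 and 14.5 CPM against 30.8, 9.99, 9.91 and 61.5 CPM, and it was not called without C57J 1 or without BALB/c. Adra1b was called lower, at 1.90, 1.90, 2.08 and 5.00 CPM against 6.42, 1.67, 18.4 and 21.7 CPM, with C57J 2 on the other side, and it was not called without nude and not tested at 2000 UMIs.

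Downstream, 5 of 23 protein kinase C genes and other diacylglycerol readers were higher and 3 were lower. Prkcb, Prkca, Prkcd, Chn2 and Dagla rose by log2 fold changes of 0.60, 0.58, 0.74, 0.50 and 0.68, and none of the 5 was called at 2000 UMIs. Mgll, the lipase that breaks down 2-arachidonoylglycerol, was lower under both choices, at 32.0, 36.9, 37.6 and 45.7 CPM against 70.7, 40.0, 63.7 and 81.4 CPM (-0.67 ± 0.15, adjusted p = 0.0058), but it was not called without C57J 1. Prkcq and Unc13c were also called lower at full depth, although Prkcq had 0 UMIs in the C57J 2 nuclei without Dgkg and 16 in the Trpc4 Dgkg neurons of that library. Prkcq was not tested at 2000 UMIs and Unc13c was not called there. Of 5 Trpc channels tested, Trpc7 was lower (-1.40 ± 0.20, adjusted p = 0.00011) and was not called at 2000 UMIs.

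Genes for synaptic input were called in both directions. Gria1, an AMPA receptor subunit, was at 2400.4, 2645, 3000.4 and 2843 CPM against 1328, 1524, 1687 and 917 CPM (1.11 ± 0.13, adjusted p = 1e-05). Of 21 glutamate receptor genes tested, 6 were higher and 5 were lower, against 3.39% and 3.98% of all genes, and Gria1, Grm8, Grm3 and Grik1 held at 2000 UMIs, the first pair higher and the others lower. Grik1, a kainate receptor subunit, was at 413, 382, 307 and 436 CPM against 650, 728, 803 and 414 CPM, so that BALB/c did not share the direction, and it was not called without C57J 1, without C57J 2 or without nude. None of 14 GABA receptor genes was called. Drd2, the D2 dopamine receptor, was at 38.7, 36.7, 42.2 and 30.4 CPM against 11.6, 11.7, 12.7 and 16.3 CPM (1.61 ± 0.21, adjusted p = 3.5e-05). Of 35 potassium channel genes, 5 were higher and 5 were lower, with Kcnn3, a small-conductance calcium-activated channel, at 153, 161, 161 and 136 CPM against 86.1, 96.6, 86.3 and 77.8 CPM (0.90 ± 0.11, adjusted p = 1.5e-05).

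Of 11 immediate early genes tested, 6 were higher in Trpc4 Dgkg neurons and none was lower, against 3.39% higher over all genes. Homer1, whose short form is induced by synaptic activity, was at 313, 250, 242 and 276 CPM against 153, 153, 130 and 90.5 CPM (1.12 ± 0.13, adjusted p = 8.6e-06). Egr3 was at 28.3, 21.5, 23.7 and 32.3 CPM against 15.4, 13.3, 4.25 and 9.05 CPM, and Arc at 21.5, 18.2, 13.1 and 27.1 CPM against 6.42, 11.7, 5.66 and 10.9 CPM. Junb and Npas4 were called under both choices too. Arc was not called without C57J 1, nor was Npas4 without C57J 1 or without BALB/c. Egr1 was not called at 2000 UMIs, and in nude it was lower in Trpc4 Dgkg neurons, at 42.5 against 48.1 CPM.

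Of 18 calcium, sodium and HCN channel genes, 4 were higher and 1 was lower. Cacna1e, the pore of R-type calcium channels, was at 1109.9, 1048, 1217 and 1269.6 CPM against 651, 718, 728 and 399.9 CPM (0.9991 ± 0.14, adjusted p = 8.6e-05). Of 25 peptide and amine receptor genes, 4 were higher and 5 lower, with Drd2, Glp1r and Oprk1 called under both choices. Oprk1, the kappa opioid receptor, was the 1 of these 3 that was lower, at 5.15, 7.10, 4.86 and 6.81 CPM against 16.7, 8.33, 12.7 and 14.5 CPM, and it was not called without C57J 1 or without nude.

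Of 10 nuclear hormone receptors, 3 were higher and 2 lower. Rorb, an orphan nuclear receptor, was lower, at 27.1, 27.9, 27.9 and 21.0 CPM against 79.6, 81.6, 51.0 and 101 CPM (-1.49 ± 0.17, adjusted p = 8.6e-06). Of 20 septal patterning factors, 3 were higher and 4 lower, and Tshz2, a zinc finger homeobox gene, was the 1 called under both choices. It was lower, with a log2 fold change of -1.12. Meis2 and Prdm16 had 0.80 and 0.64 and were not called at 2000 UMIs. Of 26 LS subtype genes, 4 were higher and 6 lower, and 7 of the 10 were called under both choices, among them Cpa6, Vwc2l, Ecel1 and Col6a3.

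Adarb2 and Vwc2l were among the largest falls in Trpc4 Dgkg neurons. Of 4 medial septal markers tested, Elavl2 and Slc5a7 were lower and none was higher, against 3.98% lower over all genes, and Elavl2 was the 1 called at 2000 UMIs. Adarb2 was at 81.0, 78.9, 74.6 and 164 CPM in Trpc4 Dgkg neurons against 338, 390, 184 and 1211 CPM (-2.10 ± 0.16, adjusted p = 1.1e-07). Elavl2 was at 80.9, 97.4, 105 and 171 CPM against 451, 212, 326 and 1153 CPM (-1.97 ± 0.18, adjusted p = 7.7e-07). Vwc2l, a secreted protein with a von Willebrand factor C domain, was at 22.4, 17.5, 16.9 and 31.8 CPM against 95.1, 133, 89.2 and 86.9 CPM (-2.12 ± 0.18, adjusted p = 4.4e-07). The BALB/c library stood far above the others in Adarb2 and Elavl2 of nuclei without Dgkg, which rest on 59 nuclei there.

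Chat and Slc5a7, the enzyme and the choline transporter of cholinergic neurons, were called lower in Trpc4 Dgkg neurons, with log2 fold changes of -2.88 and -2.71. Chat was at 4.61, 6.06, 4.999 and 8.06 CPM against 48.8, 4.997, 11.3 and 163 CPM. C57J 2 did not share the direction, and the highest level without Dgkg, in BALB/c, rests on 59 nuclei. Slc5a7 was at 10.3, 5.71, 9.03 and 10.6 CPM against 98.9, 16.7, 18.4 and 139 CPM, and at 2000 UMIs its log2 fold change was 0.12. Tacr1, the receptor of substance P, had -2.22, and at 2000 UMIs it was called in the other direction, at 0.81 (adjusted p = 0.0269). Chat was not tested at 2000 UMIs. Slc17a6, a vesicular glutamate transporter, was at 7.18, 5.19, 6.39 and 4.31 CPM against 12.8, 29.98, 38.2 and 23.5 CPM, and was not called at 2000 UMIs.

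Markers of non-neuronal cells moved with this comparison. Of 6 astrocyte markers tested, 4 were lower in Trpc4 Dgkg neurons, and their sum was 1034, 805, 898 and 732 CPM against 1945, 1709, 1376 and 2262 CPM, led by Gpc5. At 2000 UMIs Gpc5 and Slc1a3 were called, and Slc1a2 and Gja1 were not. Of 5 oligodendrocyte precursor markers, 3 were called lower, with sums of 40.6, 35.996, 38.9 and 32.9 CPM against 75.8, 58.3, 94.8 and 219 CPM. Pdgfra was the 1 of these 3 called at 2000 UMIs, Vcan was not called, and Cspg4, which was higher in the Trpc4 Dgkg neurons of C57J 2, was not tested there. Vascular markers summed to 4.47, 2.60, 3.61 and 3.89 CPM against 117, 3.33, 70.8 and 63.3 CPM. None of 7 oligodendrocyte markers was called. The largest falls, Atp13a5, Prima1, 2610307P16Rik and Ebf1, were highest in nuclei without Dgkg of BALB/c and C57J 1, with Ebf1 at 8.26, 4.50, 3.75 and 2.78 CPM against 52.7, 11.7, 19.8 and 112 CPM. Atp13a5, Prima1 and Ebf1 were not tested at 2000 UMIs. The part of other cell types in these falls was not tested. After removal of predicted doublets, 895 genes were called, 819 of them among the 932.

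**Figure D5:**
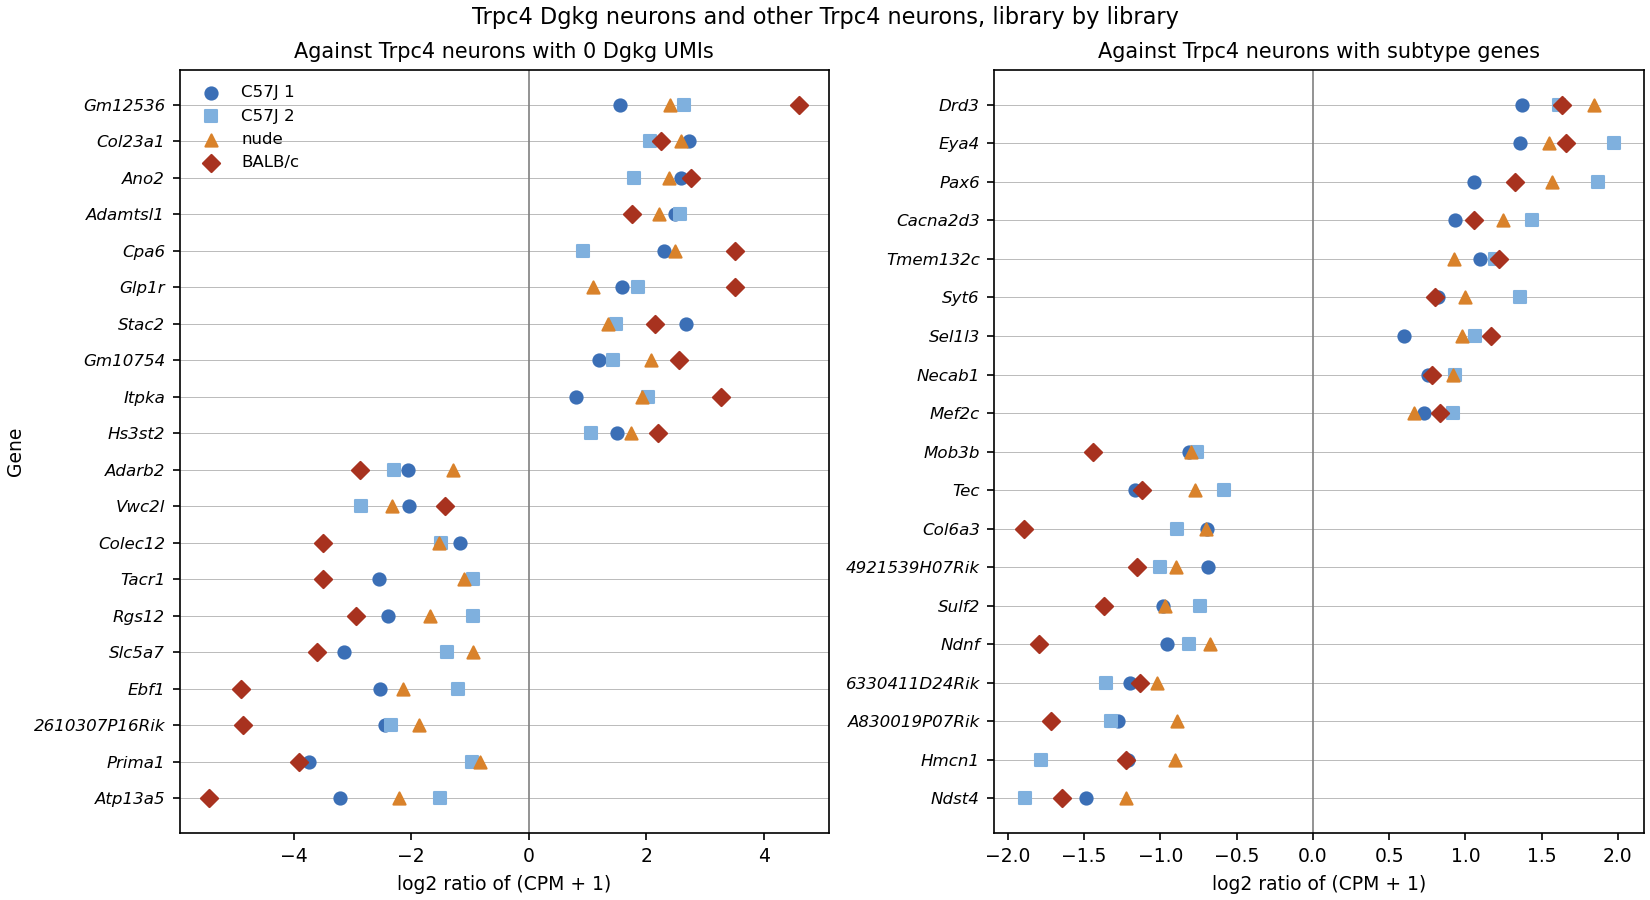
Log2 ratio of (CPM + 1) between Trpc4 Dgkg neurons and Trpc4 neurons with 0 Dgkg UMIs (left) or with subtype genes (right), for genes with the largest changes in each direction. Each symbol is 1 library, and all 4 lie on the same side of 0 in each row, as the choice required. BALB/c lies farthest out for several rows on the left, such as Gm12536 and Atp13a5.

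The last comparison set Trpc4 Dgkg neurons against the 9836 Trpc4 GABAergic nuclei with at least 2 UMIs over the 8 excluded subtype genes, which mark neurons with receptors or peptides such as Crhr2, Esr1 and Nts. The excluded genes and Foxp2 were used by the rule and were left aside. Of 15678 genes tested, 340 were called (2.17%), 110 higher in Trpc4 Dgkg neurons (0.702%) and 230 lower (1.47%). In all 4 libraries, 16.1% of genes were higher and 10.5% lower. Median depth was 8411, 7241, 6868.5 and 12699 UMIs against 9504, 7990, 8057 and 13745 UMIs. With membership decided at 2000 UMIs, 194 of the 340 genes were tested and 44 were called, from 120, 92, 111 and 83 nuclei of the comparison set. Without library as a block, 70 genes were called.

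Drd3 was higher in Trpc4 Dgkg neurons under both choices of membership. The level of Drd3 was 32.4, 25.1, 34.4 and 53.2 CPM against 11.9, 7.53, 8.87 and 16.5 CPM (1.67 ± 0.07, adjusted p = 2.9e-16), and its log2 fold change was 2.38 at 2000 UMIs. The larger fold there came with a lower Drd3 in Trpc4 Dgkg neurons of each library, at 27.6, 8.17, 15.9 and 15.6 CPM. It also rests on the small comparison set given above. Syt6, a synaptotagmin, was at 36.6, 44.0, 48.2 and 39.9 CPM against 20.3, 16.6, 23.6 and 22.5 CPM (0.98 ± 0.07, adjusted p = 1.2e-11), and 1.15 at 2000 UMIs. At full depth, each library of Trpc4 Dgkg neurons was above every library of the other set for both genes.

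Ndst4, a heparan sulfate enzyme, was lower under both choices, at 42.9, 31.8, 54.3 and 31.1 CPM against 122, 121, 128 and 99.4 CPM (-1.57 ± 0.06, adjusted p = 2e-17). Sulf2, which removes sulfate from heparan sulfate, was at 41.7, 49.7, 47.2 and 34.3 CPM against 83.4, 83.6, 93.5 and 90.3 CPM (-1.06 ± 0.06, adjusted p = 8.2e-14). Trpc6, a channel of the same family as Trpc4 that diacylglycerol opens, was at 40.8, 46.9, 56.1 and 40.9 CPM against 74.8, 84.8, 79.0 and 70.8 CPM (-0.76 ± 0.05, adjusted p = 5e-12), with -0.98 at 2000 UMIs. It was the 1 of 5 Trpc channels tested that was called. The noncoding A830019P07Rik and 6330411D24Rik were lower too, by log2 fold changes of -1.38 and -1.21.

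Pax6, among the leading genes of group 6, rose at full depth and was not called at 2000 UMIs. Pax6 was at 18.2, 27.5, 30.8 and 35.9 CPM against 8.23, 6.79, 9.75 and 13.7 CPM (1.50 ± 0.09, adjusted p = 5.2e-13), and its log2 fold change was 0.23 at 2000 UMIs. Sel1l3, also a leading gene of group 6, and Mef2c were called higher at full depth, with log2 fold changes of 0.97 and 0.77, and turned sign at 2000 UMIs, at -0.35 and -0.12 with no call. Cacna2d3, Tmem132c, Necab1 and Eya4 had full-depth log2 fold changes of 0.83 to 1.67 and no call at 2000 UMIs, where they lay between 0.14 and 0.60.

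Among the falls, Hmcn1, Ndnf and Col6a3 had log2 fold changes of -1.40, -1.09 and -1.03 and lay at 0.02, 0.06 and 0.06 at 2000 UMIs. Tec, Mob3b and 4921539H07Rik were not called there. Of 28 LS subtype genes on a list, 5 were higher and 6 lower, against 0.702% and 1.47% of all genes, which stand as the background of the other lists here too, and Ndst4 was the 1 called at 2000 UMIs. No diacylglycerol kinase, no protein kinase C gene or other diacylglycerol reader, no glutamate receptor of the 22 tested and no astrocyte or oligodendrocyte marker was called.

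Of 29 peptide and amine receptor genes tested, 2 were higher and 3 were lower, against 0.702% and 1.47% of all genes. Drd3 is given above, and Npy1r, a neuropeptide Y receptor, was at 7.59, 4.33, 5.83 and 6.26 CPM against 4.49, 3.05, 3.21 and 4.80 CPM (0.60 ± 0.14, adjusted p = 0.0038), and was not tested at 2000 UMIs. Cnr1 was at 63.1, 64.0, 56.9 and 49.9 CPM against 92.7, 83.7, 79.2 and 72.2 CPM (-0.51 ± 0.04, adjusted p = 2.6e-10), and 0.04 at 2000 UMIs. Of 16 neuropeptide genes tested, Npy and Vip were called higher, and neither was called by DESeq2 or tested at 2000 UMIs. Vip had 0 UMIs in the nude Trpc4 Dgkg neurons. Npy, the neuropeptide Y precursor, was at 2.44, 3.63, 5.28 and 8.76 CPM against 1.71, 2.47, 2.81 and 5.95 CPM.

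Of 27 Gq-coupled receptor and phospholipase genes tested, 3 were lower, Htr2a and Oxtr among them, and none was higher. Htr2a, a serotonin receptor, was at 7.45, 5.36, 7.64 and 11.7 CPM against 11.1, 9.32, 12.4 and 18.8 CPM (-0.70 ± 0.10, adjusted p = 4.6e-06), and was not called at 2000 UMIs, at -0.63. Of 36 potassium channel genes, Kcnn3 and the channel-interacting protein Kcnip1 were lower, by log2 fold changes of -0.54 and -0.57, and neither was called at 2000 UMIs. Kcnn3 was thus higher in Trpc4 Dgkg neurons than in those without Dgkg and lower than in those with subtype genes.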

How the data were processed

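The authors aligned 10x Genomics reads of nuclei to mm10 with Cell Ranger 7.0.1 and deposited raw UMI counts per gene and barcode, with no normalization. The handling of intronic reads is not given in the sources used here. mm10 is a C57BL/6J genome, so alignment of BALB/c reads can differ. The study's quality limits and doublet removal had not been applied to these counts. Columns of other samples numbered 0.

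The rule was applied to raw UMIs, and UMIs were summed per library and population. Sums were tested with edgeR 4.0.16 in R 4.3.3 (filterByExpr, TMM, quasi-likelihood F test, Benjamini-Hochberg adjustment), and all adjusted p-values are from it unless DESeq2 1.42.0 is named. Library was a block where populations of the same libraries were compared. Scripts were tested on simulated data. Doublets were predicted per library from 2 simulated doublets per nucleus. Members were clustered with leidenalg 0.10.2 on 20 components, at resolution 0.5, with each linked to its 6 nearest members in every library. Positions are from GENCODE on mm10.

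The members and gene lists were chosen with earlier results of these data known. Named genes were the 10 largest called rises and falls per comparison with libraries apart and at least 20 CPM, called or most abundant list members, the 5 smallest adjusted p of the interaction, genes the study named, and 5 leading genes per group. Some genes that met this rule are not reported here.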

Additional observations from a re-analysis of the deposited data

Results flagged for a closer look

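The difference between backgrounds in Trpc4 Dgkg neurons, minus that in Trpc4 GABAergic neurons with subtype genes, passed edgeR's test of the interaction for 6 of 16422 genes, and these differences are on the log2 scale. Gm32647, a noncoding gene, had -0.723 (adjusted p = 2.4e-07), with 175, 145, 127 and 85.4 CPM in Trpc4 Dgkg neurons and 141, 108, 178 and 98.0 CPM in the neurons with subtype genes. Thsd7b had -0.539 (adjusted p = 6.4e-05) and the synaptic gene Il1rapl2 had -0.516 (adjusted p = 6.4e-05). Ccdc141 had -0.834 (adjusted p = 0.0013). Glp1r, the receptor of glucagon-like peptide 1, had 0.786 (adjusted p = 0.011), with 33.1, 26.7, 19.2 and 30.9 CPM against 34.4, 28.3, 15.3 and 15.4 CPM. Rad51b had 1.89 (adjusted p = 0.029), at no more than 4.44 CPM in any library of either population. With membership decided at 2000 UMIs Rad51b was not tested and none of the others was called, and Gm32647, Ccdc141 and Glp1r turned sign, at 0.06, 0.44 and -0.30. Il1rapl2 stayed as large, at -0.54 (adjusted p = 0.179), and Thsd7b was at -0.18. DESeq2 called 1 gene, and 861 genes had an unadjusted p under 0.05 in edgeR.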

How the results depend on the processing

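Limits were set by depth, by 1 library each of nude and BALB/c, and by a rule that reads raw UMIs. No paired analysis was possible because nude and BALB/c have 1 library each, so that the backgrounds share fewer than 2 replicate numbers. Deciding membership at 2000 UMIs, the share of Trpc4 GABAergic nuclei at that depth and the left-out libraries for shares were chosen after seeing the data. The causes of the following changes were not tested.

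Between backgrounds, 165 genes were called, 13 without a filter on low counts, 69 with nuclei thinned to 2000 UMIs, 100 with membership decided at 2000 UMIs, and 70 to 186 with 1 library left out, the lowest without BALB/c. Against nuclei without Dgkg, 932 became 418 when thinned, 570 under the stricter rule, 604 without the library block, and 646 to 925 with 1 library left out. Against neurons with subtype genes, 340 became 211 with DESeq2, 1447 by adjusted p alone, 200 when thinned, 152 with membership at 2000 UMIs, 70 without the library block, and 279 to 325 with 1 library left out. The interaction's 6 became 1 with DESeq2, 11 without the filter, 10 by adjusted p alone, 2 when thinned, 2 with membership at 2000 UMIs, and 4 to 53 with 1 library left out, the highest without nude.

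Shares in C57J 1, C57J 2, nude and BALB/c were 2.27%, 2.23%, 2.64% and 1.51% at 2000 UMIs and 4.79%, 4.73%, 5.75% and 3.80% under the stricter rule. The looser rule gave 7.12%, 8.00%, 9.26% and 4.89%, and no lower UMI limit 5.63%, 5.43%, 6.69% and 4.45%. Of Trpc4 GABAergic nuclei they were 17.2%, 18.2%, 18.7% and 12.6%, and 28.1%, 28.3%, 27.6% and 24.3% at 2000 UMIs. The log2 ratio of shares, -0.049, ranged from -0.52 to 0.31 with 1 library left out.

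Log2 fold changes that changed sign between backgrounds with 1 library left out were those of Ndrg4 (-0.65 without C57J replicate 2 to 0.04 without C57J replicate 1), Glp1r (-0.62 without BALB/c to 0.06 without nude) and Ptchd1 (-0.13 without C57J replicate 1 to 0.10 without C57J replicate 2, with 0.04 without BALB/c). Ptchd1 was also at 0.02 without predicted doublets and at 0.05 with membership at 2000 UMIs. With membership at 2000 UMIs, those against nuclei without Dgkg were Slc5a7 0.12, Tacr1 0.81, Zic2 -0.03, Htr1f -0.40, Six3 0.00 and Htr4 -0.01. Those against neurons with subtype genes were Sel1l3 -0.35, Mef2c -0.12, Hmcn1 0.02, Ndnf 0.06, Col6a3 0.06, Cnr1 0.04, Sema3a -0.44, Tacr1 0.18 and Htr1b 0.22. In the interaction they were Gm32647 0.06, Tafa1 0.21, Ccdc141 0.44 and Glp1r -0.30.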
